A study of Homo sapiens with 18 samples.

Results

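The wild-type course was followed over its full span, from undifferentiated stem cells to organoids at Day 12, in WIBR3, a human embryonic stem cell line. The members are 6 of the 18 libraries of the series, chosen by their labels: 3 of wild-type (LIS1 +/+) stem cells and 3 of wild-type organoids at Day 12. The 3 wild-type organoid libraries of Day 5 divide the span into 2 steps, and 6 libraries of LIS1+/- stem cells and Day 12 organoids give the same span in a form of the line that is heterozygous for LIS1, a regulator of the motor protein dynein. RNA was measured by bulk MARS-seq, a method that reads short tags close to transcript 3' ends. All groups come from 1 line, and neither the number of clones behind the LIS1+/- libraries nor whether the 3 libraries of a group were separate cultures is given in the sources used here, so that the spread behind each p-value is that of the libraries at hand and may be technical.

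Human embryonic stem cells keep an open fate through a transcription network led by POU5F1, NANOG and SOX2, together with Nodal and FGF signals. When these cells aggregate without signals that hold them in that state, they form a neuroepithelium whose SOX1 and SOX3 expressing progenitors are patterned along the front-to-back and back-to-belly axes by WNT, BMP, Hedgehog and retinoic acid signals. Notch signalling holds part of the progenitors back from becoming neurons. The question here was which genes differed between both ends of the course, and which of them did so through changes that passed in neither step.

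Counts over genes per library were 1602532 to 2386061 in stem cells, 4216835 to 4501489 at Day 5 and 1425098 to 1962218 at Day 12. The files set aside 46.2 to 58.3% of alignments as not unique in the stem cell libraries, 29.9 to 31.9% in the Day 5 libraries and 29.1 to 31.4% in the Day 12 libraries. This shift lies between stem cells and Day 5, so it moves with every result of the span and of the first step. Its part in them was not tested. Each stage has its own pool number in the file names, and stage and pool cannot be told apart. The slope of a library's counts on GC content, against its group mates, was most negative in stem cell replicate 3 (-0.0185 log2 per percent GC) and Day 12 replicate 2 (-0.0301), and -0.00461 to 0.0198 in the other 7 wild-type libraries. LIS1 itself, under its symbol PAFAH1B1, stood at 84.5, 71.9 and 111 CPM (counts scaled to a common library size by TMM) in stem cells and 147, 218 and 139 CPM at Day 12, a log2 fold change of 0.91 ± 0.20 (SE, adjusted p = 0.000401).

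The labels matched the stem cell and neural progenitor markers. The summed level of 6 stem cell markers was 3668 to 4021 CPM in stem cells and 152 to 225 CPM at Day 12, where NANOG was at 0 in all 3 libraries. The summed level of 6 neural progenitor markers was 276 to 322 CPM in stem cells, where SOX1 was at 0, and 1620 to 4063 CPM at Day 12. The sums of 6 neuron markers overlapped, at 527, 533 and 410 CPM in stem cells and 616, 339 and 632 CPM at Day 12. In stem cells most of this was TUBB3, at 507, 503 and 386 CPM. The Day 12 libraries were not alike in other cell types: the summed levels of the neural crest markers in replicates 1, 2 and 3 were 308, 41.4 and 126 CPM, those of mesenchyme 333, 38.9 and 135 CPM, those of endoderm and yolk sac 368, 17.6 and 59.7 CPM, and those of the choroid plexus 144, 19.4 and 33.5 CPM. Replicate 1 was the highest and replicate 2 the lowest in the sum of each of these sets. For the choroid plexus this order came from TTR (134, 3.76 and 19.4 CPM). CLIC6 (4.51, 6.90 and 6.79 CPM), FOLR1 (4.51, 6.27 and 6.79 CPM) and KCNJ13 (0.644, 2.51 and 0.485 CPM) were neither highest in replicate 1 nor lowest in replicate 2. In stem cells the crest sums were 62.2, 64.6 and 60.03 CPM and the mesenchyme sums 184, 171 and 172 CPM. Those of endoderm and yolk sac were 61.7, 41.3 and 69.9 CPM. Day 12 replicate 1 lay above every stem cell library in these 3 sets and Day 12 replicate 2 below. Day 12 replicate 3 lay above in crest, below in mesenchyme and within the stem cell range in endoderm and yolk sac. The 5 genes of endothelium and blood summed to 12.8, 21.3 and 25.4 CPM in stem cells and to 23.2, 0.627 and 8.25 CPM at Day 12, where replicate 1 was again the highest and replicate 2 the lowest. Of these, PECAM1 and PTPRC were at 0 in both groups, and CDH5 went from no count to 5.80, 0.627 and 1.46 CPM. ALB, which defines liver cells, had 1 count at Day 12 and 1 in stem cells. In bulk samples a smaller number of cells of a type and less RNA per cell cannot be told apart.

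**Figure D1:**
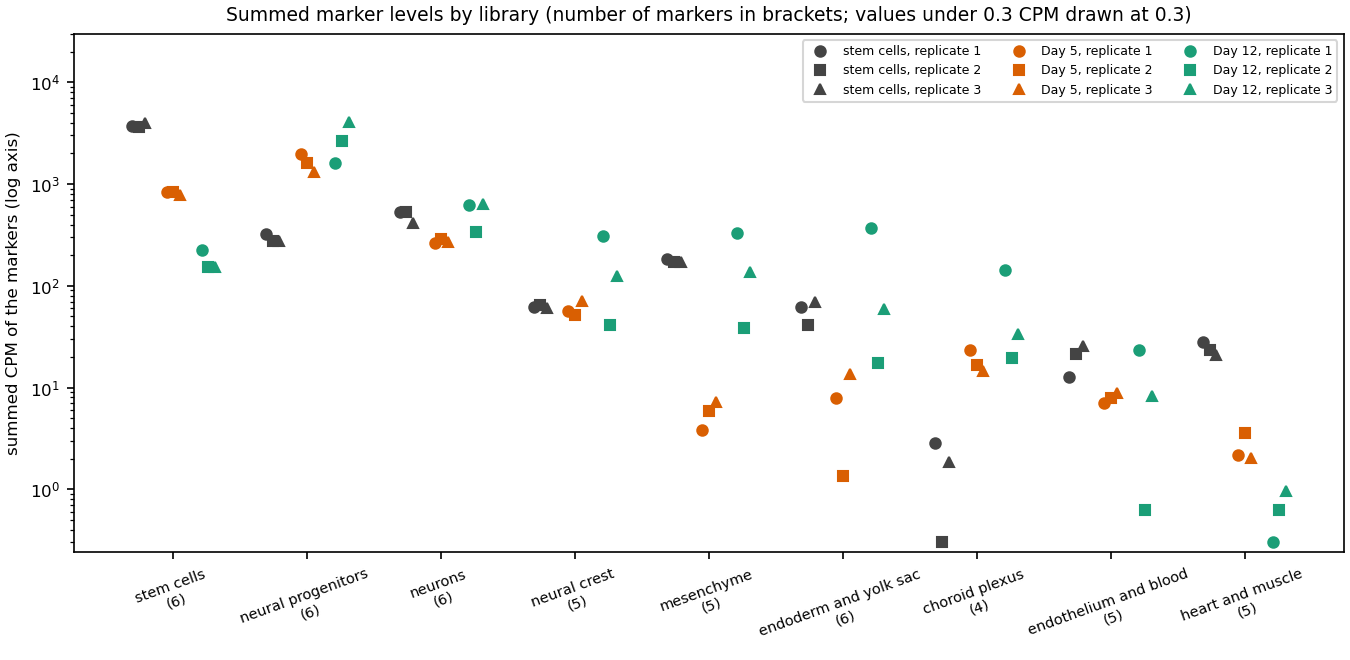
Summed CPM (log axis) of the markers of each cell type in the 9 wild-type libraries, with 1 point per library, the stage by colour and the replicate by shape. Stem cell markers lie lower at each later stage, and the Day 12 points of crest, mesenchyme and endoderm spread from replicate 2 at 41.4, 38.9 and 17.6 CPM to replicate 1 at 308, 333 and 368 CPM.

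Over the whole span, 6486 of 12215 tested genes passed (53.1%, edgeR quasi-likelihood test, adjusted p under 0.05), 3430 of them higher at Day 12 (28.1%) and 3056 lower (25.0%). The first step, from stem cells to Day 5, had 5452 calls (44.6%, 22.9% higher and 21.7% lower) and the second, from Day 5 to Day 12, had 2990 (24.5%, 12.7% and 11.7%). Rises were larger than falls: 2700 genes (22.1%) rose and 1950 (16.0%) fell by at least 2-fold, 1413 (11.6%) and 717 (5.87%) by at least 4-fold, 763 (6.25%) and 384 (3.14%) by at least 8-fold, and 267 (2.19%) and 155 (1.27%) by at least 32-fold. No library of one end overlapped the other in 3555 genes that were higher (29.1%) and 3256 that were lower (26.7%) at Day 12, 55.8% in all. The fold classes use fitted values, which depend on the model for the 154 genes that rose from no stem cell count and the 62 that fell to no Day 12 count, and the median log2 fold change was 1.70 among genes that rose and -1.24 among those that fell. The median of all tested genes was 0.09. Without stem cell replicate 3, Day 5 LIS1+/- replicate 2 and Day 12 replicate 2 together, which an earlier analysis of these data had found to stand apart, 3115 genes rose and 2841 fell. Scaling by library totals in place of TMM moved the median of all genes to 0.33 and the share of calls that were rises from 52.9% to 64.6%, so that small changes below depend on the scaling.

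The genes with the largest rises by fold included EMX2, DMRT3 and WNT8B. EMX2, a homeobox regulator of the dorsal cortex, had no count in any stem cell library and 191, 233 and 383 CPM at Day 12, at least 469-fold higher when the stem cell group is set at a floor of 3 counts (adjusted p = 1.58e-12). DMRT3, a regulator of the medial cortex, went from no count to 48.9, 85.3 and 101 CPM (at least 136-fold, adjusted p = 3.61e-11). WNT8B, a WNT ligand of the cortical hem, went from no count to 54.7, 88.4 and 104 CPM (at least 144-fold, adjusted p = 8.52e-12). All 3 genes were absent from every stem cell library and present in every Day 12 library.

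BARHL1, a homeobox regulator of diencephalic and hindbrain cells, LMX1A, a roof plate regulator, ZIC4, and MAB21L1, a gene of the eye and midbrain, had no count in stem cells either. Their Day 12 means were 74.0, 37.9, 44.9 and 39.4 CPM. TRH, the thyrotropin-releasing hormone, had 1 count in stem cells and 343, 199 and 379 CPM at Day 12, a ratio of pooled counts of 1637 (95% counting interval 293 to 64692). WNT7B, a WNT ligand of the cortical neuroepithelium, had 1 count in stem cells and 322, 229 and 553 CPM at Day 12 (ratio 2012, interval 361 to 79508). These intervals cover counting error only. TTR, the thyroid hormone carrier made by choroid plexus and liver, stood at 134, 3.76 and 19.4 CPM at Day 12 after no count in stem cells and at Day 5. Its call (adjusted p = 0.0389) ended (adjusted p from 0.0594 to 0.0815) without any 1 of the 3 stem cell libraries or without Day 12 replicate 3, and replicate 1, its highest library, was also the highest for endoderm markers.

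The largest falls by fold included the stem cell genes POU5F1 and TDGF1. POU5F1, the core pluripotency factor, stood at 560, 527 and 458 CPM in stem cells, 32.5, 32.6 and 37.3 CPM at Day 5 and 0.644, 0.627 and 0.485 CPM at Day 12, where each library held 1 count. The pooled counts were 902-fold lower at Day 12 (interval 308 to 4375, adjusted p = 3.54e-19). TDGF1, the Nodal co-receptor, went from 1264, 1155 and 1456 CPM to 2 counts in replicate 1 and none in the others, 3365-fold lower (interval 931 to 27795, adjusted p = 1.23e-14). Both genes fell in each step.

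PRDM14, a repressor that protects the stem cell state, was at 19.9, 28.6 and 23.5 CPM in stem cells and had no count at Day 12, at least 41.7-fold lower (adjusted p = 7.33e-08). IDO1, an enzyme of tryptophan breakdown, was at least 148-fold lower and MT1G, a metallothionein, at least 80.5-fold lower. The proteases ST14 and TMPRSS2 were at least 50.2-fold and 54.4-fold lower and the membrane protein CDCP1 at least 57.2-fold lower.

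**Figure D2:**
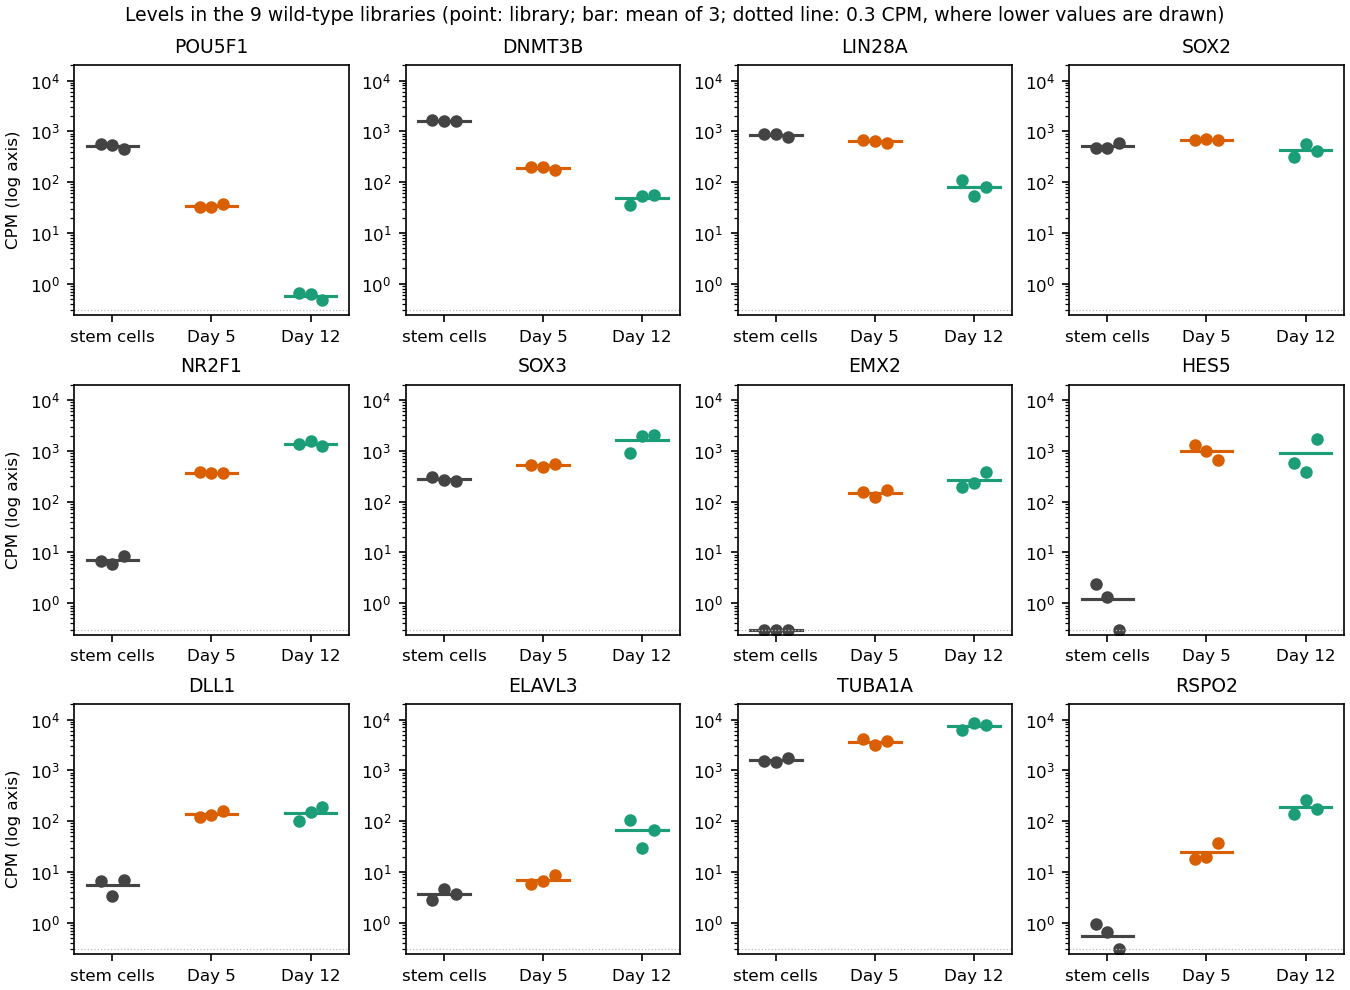
CPM (log axis) of 12 genes in the 3 wild-type libraries of each stage, with 1 point per library and a bar for the mean (genes chosen after their values were seen). POU5F1 goes from a mean of 515 to 0.585 CPM and NR2F1 from 7.10 to 1368 CPM, SOX2 libraries of stem cells and Day 12 overlap, and LIN28A and ELAVL3 move mainly after Day 5.

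Ranked by level in place of fold, the largest rise was that of TUBA1A, the alpha tubulin of young neurons and progenitors, at 1537, 1446 and 1768 CPM in stem cells and 6107, 8548 and 7634 CPM at Day 12. It rose in both steps, by 2.23 ± 0.18 on the log2 scale over the span (adjusted p = 8.70e-11). TTYH1, a membrane protein of neural progenitors, went from 101, 101 and 71.2 to 1986, 1532 and 2599 CPM, nearly all of it before Day 5 (first step 4.41, second step 0.08 with adjusted p = 0.77). NR2F1, a nuclear receptor that patterns the cortex, went from 6.64, 5.99 and 8.66 to 1349, 1531 and 1225 CPM and rose in both steps, by 7.58 ± 0.25 over the span.

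The largest falls by level included cytoskeletal genes. TAGLN, a smooth muscle actin-binding protein, went from 2972, 3039 and 1785 to 32.8, 3.76 and 16.0 CPM (-7.22 ± 0.45, adjusted p = 6.49e-10). CNN2, a calponin, went from 2764, 2658 and 2164 to 358, 270 and 451 CPM, and UCHL1, a ubiquitin hydrolase, from 2946, 2522 and 3146 to 689, 990 and 623 CPM. HMGA1, a chromatin protein, fell in the second step (-1.60, adjusted p = 0.028) and varied within groups, at 5885, 5811 and 3011 CPM in stem cells and 833, 1014 and 2332 CPM at Day 12. Its libraries that lie nearest to the other group were stem cell replicate 3 and Day 12 replicate 3.

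Gene lists were read against the tested genes as a whole, of which 28.1% rose and 25.0% fell. Members beyond the 5 with the smallest p of a list are examples chosen after their values were seen. Of 28 tested pluripotency genes, 26 fell and none rose, with a median log2 fold change of -4.97 (-4.70 with genes at no count set at their bound). DNMT3B, the de novo DNA methyltransferase of early embryos, went from 1650, 1564 and 1582 to 34.8, 53.3 and 55.8 CPM (-5.05 ± 0.18, adjusted p = 1.00e-17). The exceptions were SOX2, which neural progenitors also use, at -0.24 ± 0.17 (adjusted p = 0.255) and LIN28B at -0.70 ± 0.32 (adjusted p = 0.0653). Its paralog LIN28A, which blocks let-7 maturation, fell from 897, 883 and 772 to 110, 53.9 and 81.0 CPM, and did so in the second step (-2.95, adjusted p = 3.50e-09) and not in the first (-0.43, adjusted p = 0.10). Without Day 12 replicate 2 SOX2 passed at -0.48 (adjusted p = 0.0222) and LIN28B at -1.02 (adjusted p = 0.0171).

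Neural progenitor genes rose: 23 of 25 tested, with a median of 4.49. HES5, a Notch target that keeps progenitors from differentiating, had 7 counts in all stem cell libraries and stood at 580, 382 and 1717 CPM at Day 12. SOX1 had no count in stem cells and 12.9, 42.6 and 33.5 CPM at Day 12 (at least 51.7-fold, adjusted p = 6.25e-08). SOX3 went from 303, 262 and 260 to 921, 1917 and 2050 CPM. The members that did not pass were NES (-0.21) and VIM (0.21), intermediate filaments that both ends expressed: VIM stood at 5030, 4947 and 4843 CPM in stem cells and 5295, 6648 and 5248 CPM at Day 12.

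Of 18 forebrain patterning genes 15 rose and 1 fell (median 3.73). OTX1 went from 3.32, 1.33 and 1.86 to 240, 213 and 280 CPM and had been higher at Day 5, with 488, 450 and 500 CPM. FEZF2, which specifies forebrain and deep-layer neurons, went from 13.8, 13.3 and 6.81 to 231, 321 and 541 CPM and rose in both steps. The gene that fell was HESX1, a repressor of the early anterior neural plate (-2.41). Of 13 midbrain and hindbrain genes 10 rose and 1 fell (IRX2, -2.35). EN2, a regulator of the midbrain and cerebellum, had no count in stem cells and 25.1, 5.64 and 7.76 CPM at Day 12 (at least 22.4-fold, adjusted p = 2.47e-05).

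Among 22 genes of neurogenesis and early neurons 17 rose and 1 fell (median 4.13, or 3.95 at bounds). DLL1, a Notch ligand of cells entering neurogenesis, went from 6.64, 3.33 and 6.81 to 101, 149 and 187 CPM, with its rise in the first step (4.57) and a second step of 0.10 (adjusted p = 0.75). ELAVL3, an RNA-binding protein of neurons, went from 2.85, 4.66 and 3.71 to 103, 29.5 and 67.9 CPM, with its rise in the second step (3.25). DCX, the microtubule protein of migrating neurons, rose in both, from 3.32, 2.00 and 3.71 to 70.2, 32.6 and 54.8 CPM (4.08 ± 0.37). The proneural factor NEUROG1 had 1 count in stem cells and stood at 64.4, 23.8 and 67.4 CPM at Day 12 (ratio of pooled counts 278, interval 49.5 to 11013). Day 12 replicate 2 was the lowest of its group for ELAVL3, DCX and NEUROG1.

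The neuronal tubulin TUBB3 was the member that fell, at 507, 503 and 386 CPM in stem cells and 303, 229 and 391 CPM at Day 12 (-0.59 ± 0.18, adjusted p = 0.00679). The libraries of both ends overlapped, and the call ended with library totals (-0.36) and without Day 12 replicate 2 (-0.42).

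Genes of the dorsal midline and WNT genes both rose in most of their number. The lists are not separate, since the largest rise (10.78) is the same in both. Of 19 roof plate, cortical hem and choroid plexus genes 16 rose and none fell (median 4.70, or 4.48 at bounds). RSPO2, a secreted enhancer of WNT signalling, stood at 0.949, 0.666 and 0 CPM in stem cells and 140, 263 and 171 CPM at Day 12 (ratio of pooled counts 331, interval 113 to 1608). Of 37 WNT genes 29 rose and 6 fell (median 4.31, or 3.77 at bounds). The rises covered ligands, secretion and a transcription factor: WLS, which carries WNT proteins to the surface, went from 15.2, 9.99 and 15.5 to 483, 1043 and 616 CPM, and LEF1, a transcription factor of the pathway, rose by 5.74.

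The 6 WNT genes that fell were receptors, a secreted inhibitor and a transcriptional repressor: FZD5 (-2.60), FZD7 (-2.04), LGR4 (-1.60), TCF7L1 (-1.15), SFRP1 (-1.06) and FZD8 (-0.95). FZD7, the frizzled receptor of stem cells, went from 630, 647 and 657 to 131, 161 and 179 CPM. FZD3, a receptor of axon guidance, rose by 2.59 ± 0.47, and FZD10 had 2 counts in stem cells and 142, 41.4 and 36.4 CPM at Day 12 (ratio of pooled counts 182, interval 49.9 to 1505). In LIS1+/- the median of the WNT list was 3.30.

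Notch genes rose in 15 of 19 cases and fell in 1 (median 2.31). HES1, a target that represses proneural genes, went from 62.2, 55.3 and 47.7 to 306, 342 and 388 CPM and rose in both steps, and the ligand JAG1 went from 28.9, 28.0 and 49.5 to 185, 214 and 127 CPM, in the first step. The receptor NOTCH3 fell (-0.55) while NOTCH1 (1.10) and NOTCH2 (1.49) rose. Of 10 Hedgehog genes 8 rose and 1 fell (median 1.86). The co-receptors BOC and GAS1 rose by 4.83 ± 0.23 and 4.66 ± 0.22, BOC from 12.3, 16.0 and 15.5 to 410, 456 and 375 CPM. GLI1, a direct target of the pathway, fell by 3.40 on the log2 scale, from 42.2, 58.6 and 31.6 to 10.3, 1.88 and 0.970 CPM.

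BMP signalling changed less uniformly: 9 of 19 rose and 1 fell (FSTL1, -0.56), with a median of 0.79. The rises included the ID repressors (ID1 0.71, ID2 3.55, ID3 2.03, ID4 5.29) and the antagonist NOG (4.90). ID4, an inhibitor of proneural factors, went from 0.475, 1.33 and 2.48 to 36.7, 77.7 and 49.0 CPM. FGF genes were split, with 7 of 16 higher and 6 lower: FGF2, the ligand that maintains stem cells, fell by 3.01 and the receptor FGFR1 by 1.23 on the log2 scale, and FGFR3, a receptor of neural progenitors, rose by 1.48 ± 0.21.

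Neural crest genes rose in 14 of 18 cases and fell in 2 (median 3.25), and these values move with the library. TFAP2A, a crest and epidermal regulator, had no count in stem cells and 91.4, 15.05 and 35.4 CPM at Day 12. MSX1, of the roof plate and crest, went from 1.90, 0.666 and 1.24 to 373, 83.4 and 139 CPM. SOX10 stood at 0.475, 5.99 and 3.09 CPM in stem cells and 87.6, 5.64 and 35.9 CPM at Day 12, so that replicate 2 lay within the stem cell range. The 2 genes that fell, FOXD3 (-2.98) and ERBB3 (-0.99), are also expressed in stem cells. Mesenchyme genes gave no common direction (5 of 13 higher, 4 lower), with a median of 0.11 that turned to -0.41 without Day 12 replicate 1. Of 5 tested endoderm genes 2 rose and 2 fell, and the sign of their median depended on the libraries and the filter.

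Epithelial genes fell: of 11 surface ectoderm and keratin genes 10 fell and none rose (median -4.70, or -3.39 at bounds). EPCAM went from 990, 1025 and 1273 to 55.4, 16.3 and 16.98 CPM and fell in the first step alone (second step 0.09, adjusted p = 0.89). Within cadherins, E-cadherin (CDH1) went from 108, 125 and 124 to 5.15, 0 and 1.46 CPM and N-cadherin (CDH2) from 306, 358 and 382 to 502, 1015 and 684 CPM. CDH2 rose by 1.07 ± 0.18 (adjusted p = 1.89e-05).

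Other pairs of related genes moved in opposite directions over the span. The glucose transporter SLC2A3 fell from 329, 353 and 293 to 148, 90.3 and 114 CPM and SLC2A1 rose from 354, 378 and 424 to 1085, 1165 and 918 CPM. TUBA1C fell by 1.47 ± 0.15 on the log2 scale while TUBA1A rose by 2.23 ± 0.18, with the limit that near-identical copies can share tags. SMARCD1, a BAF chromatin remodelling subunit, fell by 1.03 ± 0.18 and its paralog SMARCD3 rose by 3.49 ± 0.32. In FGF feedback SPRY4 fell by 1.48 and SPRY1 rose by 1.66. Both de novo methyltransferases fell, DNMT3A by 1.01 ± 0.16 from 170 to 84.5 CPM. Further pairs moved the same way: OTX2 rose by 1.13 and OTX1 by 6.71, and LDHB (-0.91) and LDHA (-1.37) fell. PTBP1, a repressor of neuronal splicing, fell by 0.80 ± 0.14, and PTBP2, its neural paralog, was at 0.54 ± 0.24 (adjusted p = 0.057) and passed with library totals (0.79) and without stem cell replicate 3 (0.70) or Day 12 replicate 1 (0.73).

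Ribosome biogenesis genes also fell in most of their number. Of 51 ribosome biogenesis genes 47 fell and none rose, with a median of -1.33 (-0.87 in the first step and -0.60 in the second). NOP16, a nucleolar protein, went from 235, 190 and 248 to 31.6, 27.6 and 29.1 CPM (-2.93 ± 0.22, adjusted p = 1.89e-11). NPM1, the nucleolar histone chaperone, went from 1524, 1259 and 1101 to 261, 401 and 357 CPM. MYC, a transcription factor that drives such genes, fell from 99.2, 132 and 105 to 15.5, 9.40 and 3.88 CPM. MYCN fell by 0.55 ± 0.16, a call that ended with library totals (-0.30) and without stem cell replicate 3 (-0.39).

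Mitochondrial and protein-quality genes showed the same direction. Of 38 genes of mitochondrial import, ribosomes and chaperones 34 fell and none rose (median -1.26), and of 41 nuclear genes of oxidative phosphorylation 34 fell and none rose (median -0.85). UQCRH, a subunit of complex III, went from 1305, 940 and 1245 to 305, 374 and 336 CPM. Of 31 proteasome genes 24 fell and none rose, and of 28 chaperonin and folding genes 24 fell and none rose. Of 22 aminoacyl-tRNA synthetase genes 18 fell and none rose, and of 25 genes of serine, one-carbon and amino acid metabolism 22 fell and none rose. SLC7A5, the large neutral amino acid transporter, went from 945, 789 and 646 to 44.4, 31.3 and 61.1 CPM (-4.11 ± 0.23).

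Cytosolic ribosomal proteins did not follow: 21 of 56 fell and 5 rose (median -0.24), and with library totals the median was 0.00. RPS3 fell from 4549, 3679 and 3063 to 1895, 1524 and 1696 CPM, while RPL3 rose from 2637, 2448 and 2438 to 3590, 4013 and 4047 CPM. These genes have many near-identical pseudogenes, and reads shared with them would be set aside as not unique, so the values of this family are uncertain.

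Of 39 actomyosin genes and targets of the serum response factor 33 fell and 2 rose (median -1.78). MYL9, the myosin light chain of contractile cells, fell by 4.21 ± 0.23, and ACTG1 went from 8606, 7743 and 8573 to 5780, 5756 and 5846 CPM. The falls came mainly with the first step (31 of 39 lower, against 8 in the second).

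Of 36 DNA replication genes 20 fell and none rose over the span, with 5 falls and 7 rises in the first step and 20 falls in the second. MCM5, a subunit of the replicative helicase, went from 594, 687 and 582 to 198, 153 and 204 CPM. Of 36 mitosis genes 11 rose and 7 fell (median 0.04), near the shares of all tested genes, of which 28.1% rose and 25.0% fell. MKI67 rose from 15.7, 25.3 and 21.7 to 42.5, 50.2 and 79.1 CPM, while the kinase AURKA fell by 1.11. The inhibitor CDKN2A fell from 75.9, 79.9 and 65.6 to 1.29, 1.25 and 0.485 CPM, and CDKN1C, an inhibitor of cells leaving the cycle, rose from 30.4, 42.6 and 34.7 to 471, 242 and 423 CPM.

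Hypoxia and glycolysis genes rose in 17 of 32 cases and fell in 8 (median 0.57), with a first step of -0.19 and a second of 1.24. BNIP3, a mitophagy receptor induced by low oxygen, went from 64.5, 67.2 and 78.0 to 827, 698 and 609 CPM, and the lactate exporter SLC16A3 from 9.49, 7.99 and 1.86 to 437, 222 and 380 CPM. The genes that fell included LDHA (-1.37), which makes lactate from pyruvate, and ADM (-3.31), the peptide hormone adrenomedullin. Of 33 collagen and basement membrane genes 17 rose and 7 fell: COL4A6 rose by 4.37 and COL2A1 by 4.34, COL12A1 fell by 5.39.

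**Figure D3:**
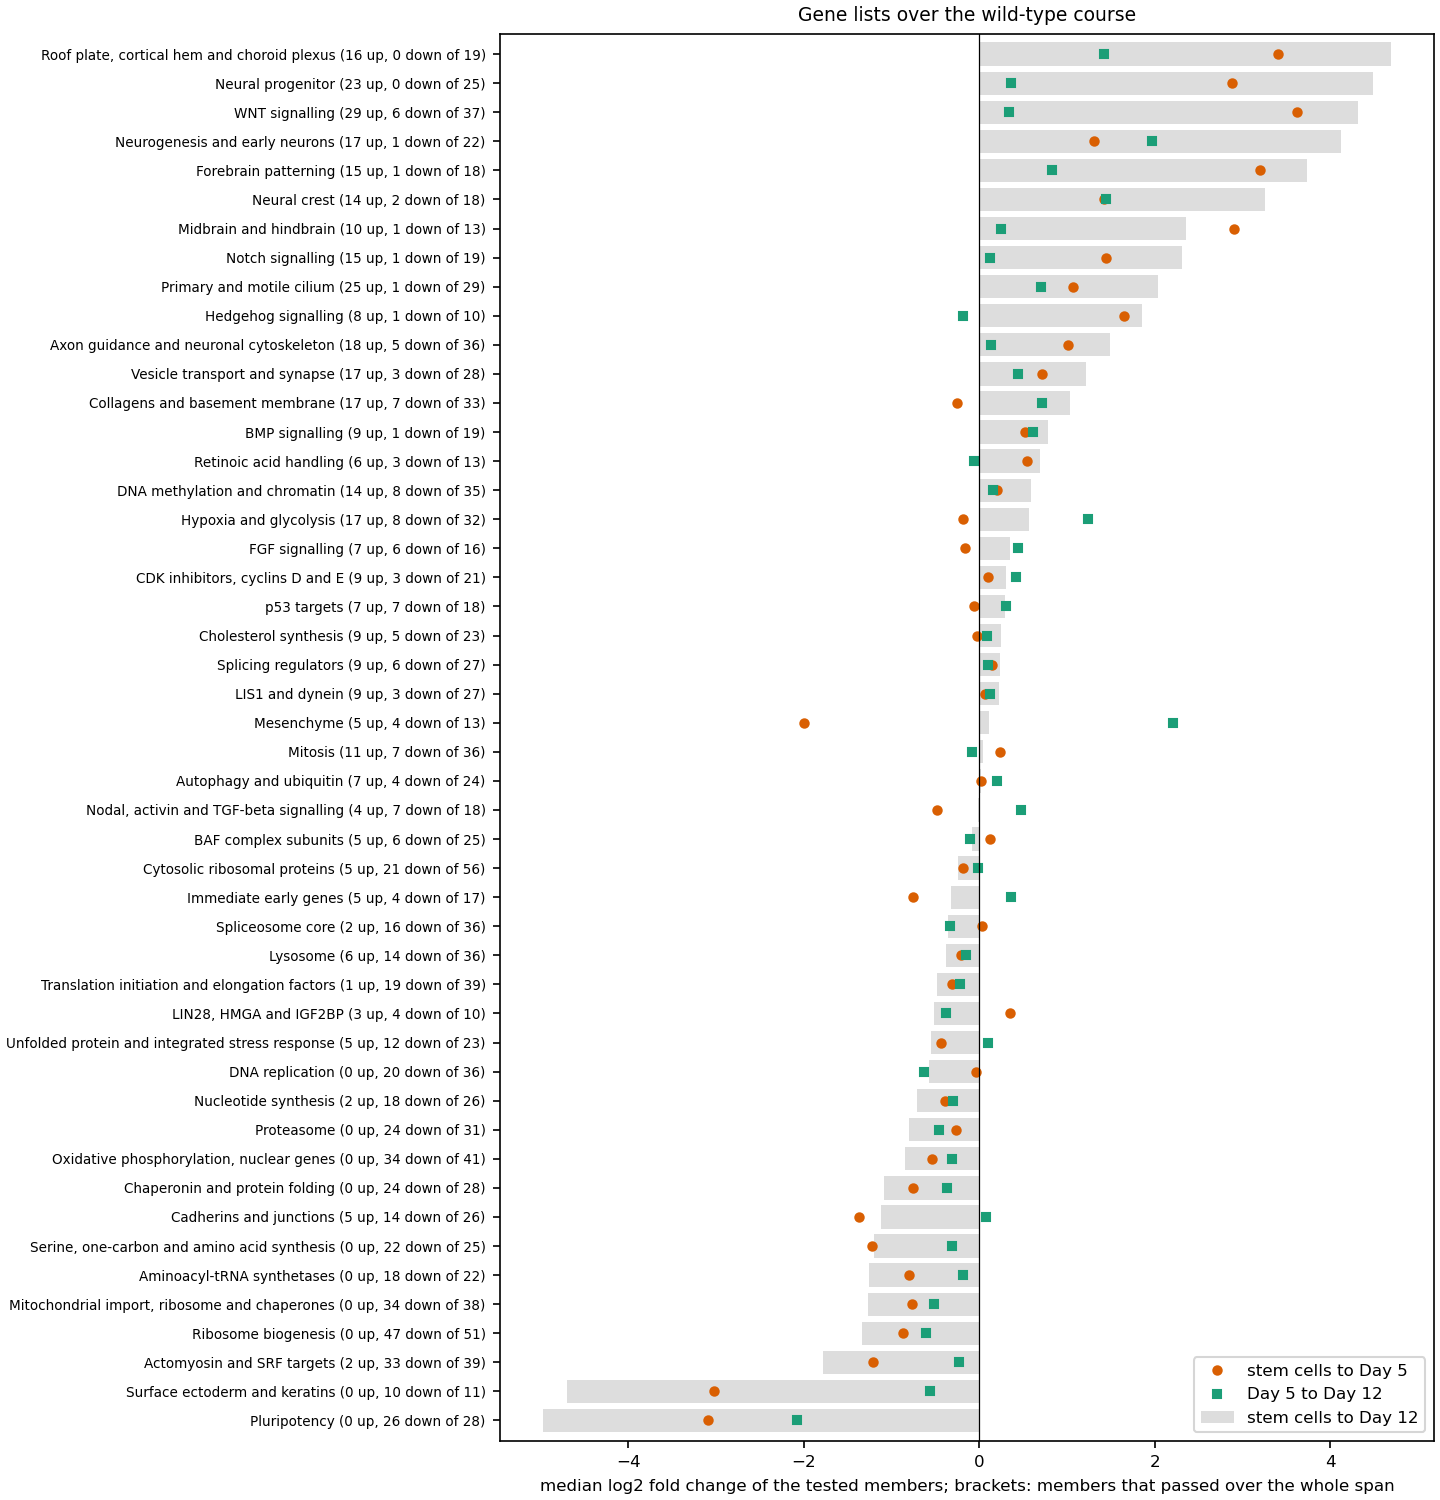
Median log2 fold change of the tested members of the 48 lists with at least 10 of them, over the span (bars), from stem cells to Day 5 (circles) and from Day 5 to Day 12 (squares). Pluripotency and ribosome biogenesis lie below 0 in all 3 comparisons (spans of -4.97 and -1.33), the neural lists above, and hypoxia genes rise between the last 2 stages (1.24) after -0.19 in the first step.

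Cilium genes rose as a group: 25 of 29 rose and 1 fell (IFT20, -0.96), with a median of 2.04. RFX4, a transcription factor of ciliated neural progenitors, had 4 counts in stem cells and stood at 96.6, 100 and 50.4 CPM at Day 12 (6.65 ± 0.57, adjusted p = 1.11e-09). FOXJ1, the regulator of motile cilia, went from 6.17, 4.66 and 4.33 to 48.9, 38.9 and 63.1 CPM. SPAG16, of the motile axoneme, went from 17.1, 17.3 and 14.9 to 53.4, 99.1 and 73.2 CPM, and BBS5, of the BBSome that moves membrane proteins in cilia, from 2.37, 3.33 and 13.6 to 56.0, 60.8 and 40.3 CPM. Every Day 12 library of these 4 genes lay above every stem cell library.

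The promoters of the cilium genes are shown because members moved together and because RFX factors bind a motif whose arms read GTTGCC. The search covered 250 bases before each RefSeq gene start (GRCh38.p14) on both strands. It was chosen after the values were seen, together with CACGTG, the letters that MYC binds with MAX, and with ribosome biogenesis and mitochondrial genes as the other lists. These 2 motifs were the only ones searched, and neither contains the other. Of the tested genes 9786 had a promoter in the table, and 10.6% of these held GTTGCC and 8.80% CACGTG. The shares over all 35116 promoters were 10.2% and 6.34%. Of 23 matched cilium genes 9 held GTTGCC (39.1%), against 7 of 43 ribosome biogenesis genes (16.3%) and 6 of 35 mitochondrial genes (17.1%). CACGTG was in 1 of 23 cilium genes (4.35%), 5 of 43 ribosome biogenesis genes (11.6%) and 3 of 35 mitochondrial genes (8.57%), close to the share of the tested genes. A match is a description of these letters and not a binding site. In the 9 cilium promoters the match nearest to the start began 11 to 196 bases before it. They are printed 5' to 3' on the strand of the gene with up to 17 bases on each side, ending at the gene start at most, and capitals mark GTTGCC or its reverse complement GGCAAC:
DRC1: cggtgaccgctctccctGGCAACggttt
SPAG16: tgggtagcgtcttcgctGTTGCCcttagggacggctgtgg
IFT27: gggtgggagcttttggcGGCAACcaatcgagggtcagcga
IFT46: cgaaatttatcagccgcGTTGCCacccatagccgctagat
IFT122: gcttaccgcgcatgtacGTTGCCaggggt
BBS5: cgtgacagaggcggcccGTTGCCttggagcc
TMEM107: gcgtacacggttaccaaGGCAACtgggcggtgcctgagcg
TULP3: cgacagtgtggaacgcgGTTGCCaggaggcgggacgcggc
DYNC2H1: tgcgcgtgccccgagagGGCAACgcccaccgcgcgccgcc

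These windows lie at chr2:26401892-26401919 (plus strand) for DRC1, chr2:213284411-213284450 (plus) for SPAG16, chr22:36776138-36776177 (minus) for IFT27, chr11:118566105-118566144 (minus) for IFT46, chr3:129440195-129440223 (plus) for IFT122, chr2:169479463-169479493 (plus) for BBS5, chr17:8176395-8176434 (minus) for TMEM107, chr12:2890834-2890873 (plus) for TULP3 and chr11:103109358-103109397 (plus) for DYNC2H1. The promoter of SPAG16 held 3 matches and the others 1 each. Of these 9 genes 8 rose over the span, near the share of the whole cilium list, of which 25 of 29 rose. The rises ran from IFT27 (0.49, adjusted p = 0.0218) to DRC1, of the motile axoneme, which had 1 count in stem cells and 10.3, 21.3 and 19.9 CPM at Day 12 (ratio of pooled counts 91.3, interval 15.97 to 3644, adjusted p = 1.97e-06). DYNC2H1, the motor that returns cargo from the cilium tip, was at 0.95 (adjusted p = 0.315).

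Of the genes that passed over the span, 1126 passed in neither step (9.22% of tested genes and 17.4% of span calls), 625 higher (5.12%) and 501 lower (4.10%) at Day 12. In 1119 of them (9.16%) both fitted steps had the sign of the span, and in 914 the smaller was at least 1 part in 3 of the larger. As neither step passed, how the change was split between the steps is uncertain. Over all 1126 genes the median size was 1.00 on the log2 scale, 567 had a span of at least 1 in size, and the libraries of both ends overlapped in 246. By size alone, 968 genes (7.92%) passed with at least 2-fold over the span while each step had the same sign and was under 2-fold, 449 higher (3.68%) and 519 lower (4.25%). The comparisons share libraries and the span is the sum of both steps, so these counts describe the course and have no test of their own. Without Day 5 replicate 1, 2 or 3, where the steps rest on fewer libraries, 740, 804 and 731 lower genes passed in neither step. The higher genes then numbered 893, 930 and 897. Passing in neither step thus depends on the libraries behind each step and not on its size alone. CA10, with no stem cell count, had a first step of 4.75 that did not pass (adjusted p = 0.0771).

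Among genes that added up to a rise, SRPK2, a kinase of splicing factors, stood at 5.22, 6.66 and 9.90 CPM in stem cells, 14.4, 9.66 and 13.7 CPM at Day 5 and 26.4, 21.3 and 15.5 CPM at Day 12. Its span was 1.54 ± 0.38 (adjusted p = 0.00143) and its steps 0.81 and 0.73 (adjusted p = 0.081 and 0.11). RBM17, a splicing factor, went through 11.4, 8.65 and 9.90, then 15.6, 14.8 and 19.3, then 29.6, 29.5 and 21.3 CPM (1.40 ± 0.31, steps of 0.72 and 0.68). In both genes every Day 12 library lay above every stem cell library, with the Day 5 mean in between.

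NUF2, a kinetochore subunit, added up to 1.41 ± 0.31 from steps of 0.70 and 0.70, at 10.4, 16.6 and 13.6 CPM in stem cells and 37.3, 43.3 and 26.7 CPM at Day 12. ATP7B, a copper transporter, added up to 1.43 ± 0.33, from 9.97, 6.66 and 13.0 to 19.3, 38.9 and 22.3 CPM. GOLGA8A, of a family of Golgi genes with near-identical copies whose counts are uncertain, had the largest span (2.45 ± 0.56) of the 12 genes named here, whose higher mean was at least 20 CPM. Genes of lower level that added up had larger fitted spans. The rest of the 12 were DFNA5, which encodes gasdermin E (1.66), C19orf81 (1.65), the enolase ENO3 (1.54), CTC-338M12.4 (1.53), ENGASE, an enzyme that trims free glycans (1.52), C5orf22 (1.46) and RASSF4 (1.39).

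Among genes that added up to a fall, RARS, the arginyl-tRNA synthetase, stood at 28.9, 19.97 and 20.4 CPM in stem cells, 15.6, 15.7 and 13.9 CPM at Day 5 and 10.9, 7.52 and 10.2 CPM at Day 12. Its span was -1.28 ± 0.33 (adjusted p = 0.00202) and its steps -0.63 and -0.65 (adjusted p = 0.083 and 0.14). HEATR1, a factor of ribosomal RNA transcription, went from 25.6, 35.3 and 26.6 to 7.73, 19.4 and 8.73 CPM (-1.29 ± 0.33). Both genes had lower levels in every Day 12 library than in every stem cell library.

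CHCHD10, a protein of the mitochondrial intermembrane space, went from 888, 667 and 512 CPM through 406, 428 and 414 CPM to 279, 134 and 388 CPM (-1.37 ± 0.34). ATP13A2, a lysosomal transporter, went from 246, 231 and 128 through 132, 136 and 126 to 77.3, 36.4 and 115 CPM (-1.39 ± 0.35). In both genes, and in QSOX1 (-1.70) and PPP6R1 (-1.44), stem cell replicate 3 was the lowest of its group and Day 12 replicate 2 the lowest of its own, the 2 libraries with the most negative GC slopes, whose part in these falls was not tested. RAB29, a small GTPase of the Golgi and lysosome, fell by 1.41, IGSF1 by 1.60, WBSCR17 by 1.45, FAM111B by 1.39 and SHCBP1 by 1.24 on the log2 scale. SLC25A22, the mitochondrial glutamate carrier, was at -1.24 ± 0.44 (adjusted p = 0.0249), and its call ended without stem cell replicate 1 (-1.04) or 2 (-1.13) or Day 12 replicate 2 (-1.05).

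**Figure D4:**
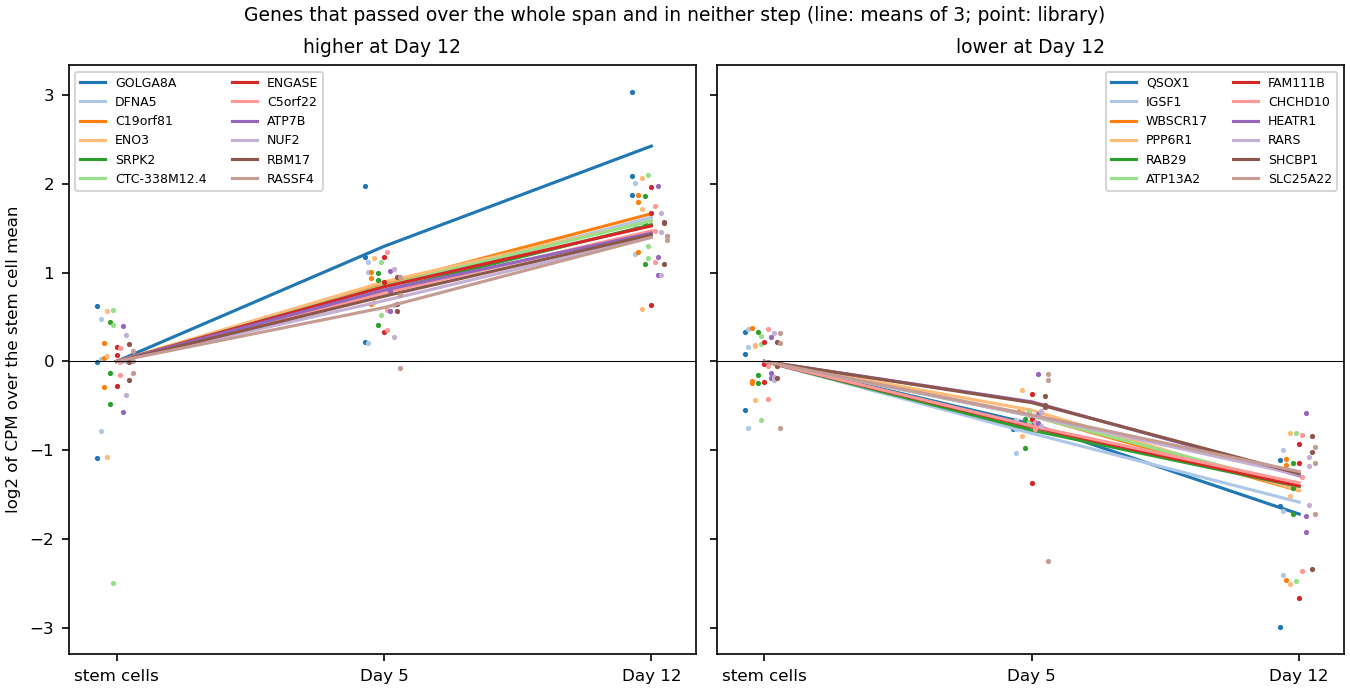
CPM at each wild-type stage relative to the stem cell mean, on a log2 scale, for the 12 named genes that added up to a rise (left) and the 12 that added up to a fall (right), with lines through the means of 3 libraries and 1 point per library. Day 5 lies between both ends for each gene, and no step of these genes passed, while spans ran from 1.39 to 2.45 on the left and from -1.70 to -1.24 on the right.

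By list, the members that added up included 9 of the 41 oxidative phosphorylation genes, 6 of the 36 DNA replication genes, 5 of the 36 spliceosome genes, 5 of the 39 translation factors, 4 of the 31 proteasome genes and 5 of the 29 cilium genes, against 9.22% of all tested genes. They also included 2 of the 10 LIN28, HMGA and IGF2BP genes, 4 of the 23 cholesterol synthesis genes, 4 of the 24 autophagy and ubiquitin genes, 3 of the 18 p53 targets, 5 of the 36 mitosis genes and 5 of the 56 cytosolic ribosomal protein genes, so that lists of many kinds held such members. None of the 25 neural progenitor, 22 neurogenesis or 19 Notch genes was among them. The same held for the 36 axon guidance, 27 LIS1 and dynein, 26 cadherin and junction and 25 BAF genes. A list with no such member was therefore not particular to neural genes. EEF2, the elongation factor that moves the ribosome along, is an example of high level chosen after its values were seen, with a span of -0.60.

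The opposite case was a gene that came back. Day 5 libraries lay above all libraries of both ends in 402 genes (3.29%) that passed for the middle against the mean of the ends and not for the span, and below all of them in 364 (2.98%). Of all tested genes 25.2% passed that contrast, 14.2% higher and 11.1% lower at Day 5. CA4, a carbonic anhydrase, stood at 2.37, 0.666 and 1.86 CPM in stem cells, 38.0, 33.5 and 20.2 CPM at Day 5 and 5.15, 3.76 and 2.91 CPM at Day 12. PAX2, a regulator of the midbrain-hindbrain boundary and optic stalk, went from 1.42, 5.99 and 3.71 to 52.2, 40.9 and 44.3 and back to 9.66, 5.02 and 11.2 CPM. POU3F1, a POU factor of the early neural plate, went from 15.7, 5.99 and 9.90 to 90.9, 110 and 75.3 and back to 18.03, 11.3 and 21.8 CPM. With library totals the spans of CA4 (1.40), PAX2 (1.53) and POU3F1 (0.91) passed. That of PAX2 also passed with no filter on low counts (1.30, adjusted p = 0.0158) and by DESeq2 (1.29, adjusted p = 0.0438).

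PAMR1, ADORA1, MIXL1, NRTN and PCDH8 had the same form. Without Day 12 replicate 1 the span of PAMR1 passed (-1.36), and without Day 12 replicate 2 those of NRTN (1.32) and INSM1 (0.77) did, as did that of POU3F1 without stem cell replicate 1 (1.10). Among genes with the lowest level at Day 5, INSM1, a factor of cells turning into neurons or endocrine cells, stood at 53.6, 66.6 and 67.5 CPM, then 2.16, 2.69 and 2.02 CPM, then 139, 26.3 and 75.7 CPM. BAMBI, a decoy BMP receptor, went from 71.2, 77.9 and 66.2 to 12.3, 11.9 and 22.9 and back to 162, 42.0 and 56.3 CPM. TRIB3 and STC2, both induced in the integrated stress response, had Day 5 means of 8.53 and 6.82 CPM against 66.9 and 49.2 CPM in stem cells and 50.6 and 34.9 CPM at Day 12. AFP, the yolk sac and fetal liver protein, was at 49.8, 32.6 and 53.8 CPM, then at most 0.481 CPM, then 119, 3.13 and 7.28 CPM, so that its return rested on Day 12 replicate 1, without which its span was -3.07 (adjusted p = 2.75e-06).

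The same span in LIS1+/- compared libraries that the wild-type contrast did not. Both contrasts came from 1 model with a shared filter, scaling and estimate of the spread, so their tests are not separate. The share of alignments set aside as not unique shifted here too, from 34.9 to 52.5% in stem cells to 26.5 to 28.2% at Day 12. In LIS1+/- 6362 genes passed (52.1%), 3257 higher (26.7%) and 3105 lower (25.4%). Across the 12215 genes the fitted spans of both genotypes had a Pearson r of 0.889, a description over genes that are not independent replicates. Of the wild-type calls 5153 passed the same way in LIS1+/- (79.4% of wild-type and 81.0% of LIS1+/- calls) and 9 passed the other way. Of the 1126 genes that added up in wild-type, 640 passed the same way in LIS1+/- (56.8%), 1 passed the other way, and 1087 had the same sign.

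The difference between both spans passed for 46 genes (0.377%), 2 with a higher (0.0164%) and 44 with a lower span (0.360%) in LIS1+/-. This count moved with the libraries and the test, from 11 without Day 12 LIS1+/- replicate 3 to 138 without wild-type Day 12 replicate 2, and DESeq2 called 120. DLK1, an imprinted growth regulator, had the smallest p: it went from a mean of 65.7 to 1164 CPM in wild-type and from 164 to 399 CPM in LIS1+/- (difference -2.86 ± 0.33, adjusted p = 7.46e-05). SOX3 rose to a mean of 1629 CPM in wild-type and 771 CPM in LIS1+/- (difference -1.48 ± 0.28, adjusted p = 0.0116). ZIC2, a zinc finger factor of the dorsal neural tube, and CD9, a surface protein of stem cells, were the 2 genes with a higher span in LIS1+/- (0.96 and 1.14).

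**Figure D5:**
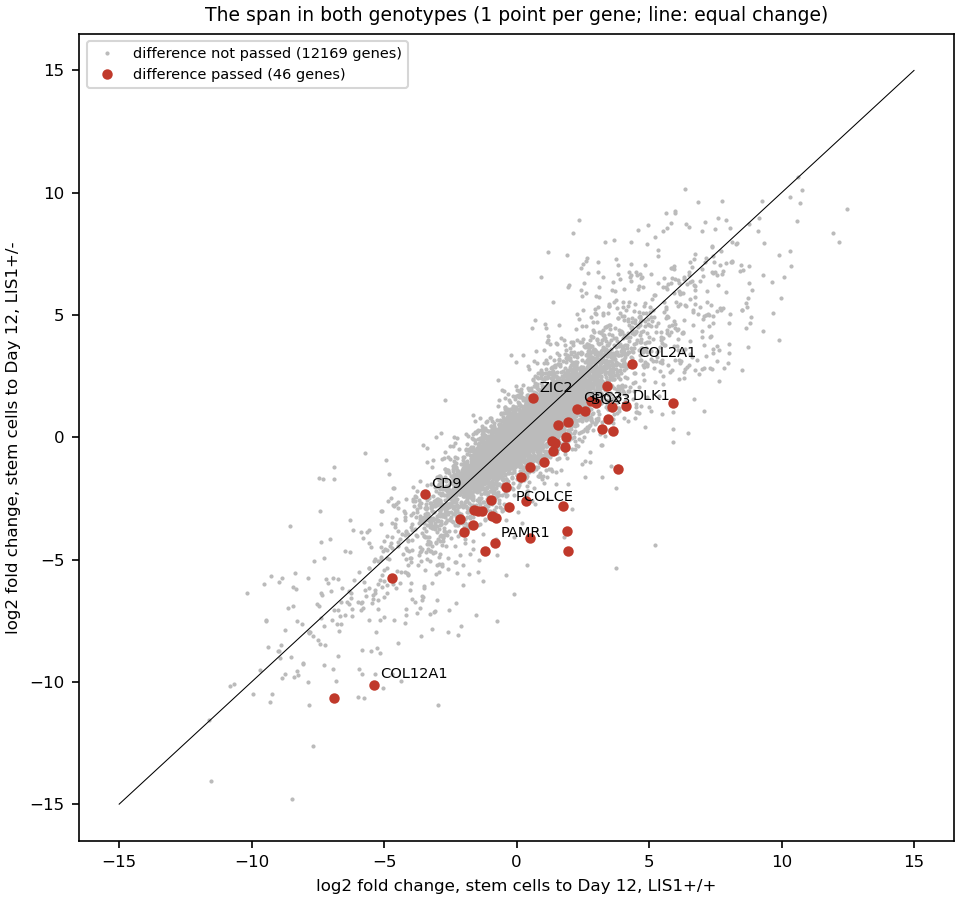
Fitted log2 fold change from stem cells to Day 12 in LIS1+/+ (x axis) and LIS1+/- (y axis), with 1 point per tested gene and the line of equal change. The 46 genes whose difference passed are marked, 44 of them below the line, and fitted values of genes with no count at one end depend on the model.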

How the data were processed

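Bulk MARS-seq libraries were compared, 3 per group. Cutadapt, STAR and DESeq2 are listed, with no versions, per the submitters' processing notes, which give GRCh37 as well as hg38 with no role for either. The deposited values are raw counts per gene symbol, as whole numbers over 26485 genes. The closing rows that name no gene were left out of library sizes and tests (the not unique row is given as a share). Strand use and the collapse of molecular identifiers are not given in the sources used here.

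Genes were filtered with filterByExpr (12215 kept), scaled with TMM and tested in edgeR 4.0.16 (R 4.3.3) by a robust, two-sided quasi-likelihood test on 1 model that held the 18 libraries in 6 groups. The threshold was 0.05 on p-values adjusted by Benjamini-Hochberg across the 12215 genes. Errors are SEs of fitted log2 differences. Folds use mean CPM, with a floor of 3 counts over a group with none. A group with 1 to 3 counts gives a pooled ratio with an exact 95% counting interval. CPM compares a gene between libraries, not genes with each other.

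Named genes were the 15 largest rises and falls by fold (higher mean 20 CPM or more, libraries not overlapping), the 10 by level, 12 adding genes and 8 middle genes per direction, up to 5 members of each of 51 lists by smallest p, 34 pairs of related genes, and PAFAH1B1. Not all are printed, and a few genes are not reported here. Members, lists and rules were chosen with earlier results of these data known. Lists carry no test. GC content came from the last 500 bases of GENCODE release 29 transcripts (11661 genes, 95.5%). Alternatives were DESeq2 size factors, library totals, no filter, DESeq2 1.42.0, only the libraries compared, the replicate block, each library left out, and 3 libraries left out together. The pipeline was tested on simulated data. Figures used Matplotlib 3.10.9, pandas 2.3.3 and NumPy 2.4.6 in Python 3.11.15.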

Additional observations from a re-analysis of the deposited data

Results flagged for a closer look

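The genes named by the rule that are given here had spans that differed between LIS1+/- and wild-type by the test of the difference itself, and CD9 was added as the other gene with a higher span in LIS1+/-. All values are differences of log2 fold changes, LIS1+/- minus wild-type. Of genes that rose in wild-type, the differences were -2.86 for DLK1, -1.48 for SOX3, -1.33 for COL2A1, -1.31 for CDKN1C, -1.31 for DDIT4, a stress-induced inhibitor of mTORC1, and -1.12 for GPC3, a surface proteoglycan. Each had a higher stem cell mean in LIS1+/- than in wild-type, and all but COL2A1 a lower Day 12 mean. COL2A1 had means of 12.9 CPM (wild-type) and 33.0 CPM (LIS1+/-) in stem cells, and 263 and 267 CPM at Day 12. Of genes that fell in wild-type the differences were -4.72 for COL12A1, -1.53 for SLC2A3 and -1.03 for PODXL, a surface sialoprotein of stem cells, which fell further in LIS1+/-. COL12A1 had a mean of 2.81 CPM in wild-type Day 12 and 0.0945 CPM in LIS1+/- Day 12. The latter is under the floor of 3 counts over that group (0.346 CPM), so the size of its difference depends on the model. Of genes that were at a high or low at Day 5 with no span call in wild-type the differences were -3.49 for PAMR1, -2.58 for PCOLCE, an enhancer of collagen processing, and -1.63 for TRIB3, each of which fell over the span in LIS1+/-. Without Day 12 replicate 1 the wild-type span passed for PAMR1 (-1.36, adjusted p = 0.0168) and PCOLCE (-1.13, adjusted p = 0.0114), and that of PAMR1 also passed with no filter on low counts (-0.83, adjusted p = 0.0259). ZIC2 (0.96) rose more in LIS1+/- and CD9 (1.14) fell less. Genotype and clone cannot be told apart.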

How the results depend on the processing

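Counts of span, step 1, step 2 and LIS1+/- span calls stayed within 1.5 times under all alternatives run, 5810 to 6187 for the wild-type span when 1 library was left out. The difference of the spans did not: with no filter 172 genes passed (18 higher, 154 lower in LIS1+/-), with DESeq2 120 (18 and 102), without the 3 libraries that stood apart 158 (27 and 131), and with only the libraries compared 4 were higher, against 46 (2 and 44). Leaving out 1 library gave 11 to 138 in total, 0 to 15 higher and 11 to 123 lower. The total was 138 without Day 12 wild-type replicate 2. It was 24 without stem cell wild-type replicate 1 or 3, 29 and 19 without stem cell LIS1+/- replicate 1 or 3, and 25, 28 and 11 without Day 12 LIS1+/- replicate 1, 2 or 3. The cause was not tested. Genes higher at Day 5 than the mean of the ends numbered 1729, and 1133 to 1887 with 1 library left out. Lower genes that passed in neither step numbered 501, and 408 to 804, and higher ones 625, and 542 to 930. The extremes of 1133, 804 and 930 came without Day 5 replicate 2, where the steps rest on fewer samples. Leaving out either of the other Day 5 libraries also raised the numbers that passed in neither step. For named genes 4795 values kept their side of the threshold, 31 gained and 39 lost it, and none turned its direction past it. The calls lost under at least 1 alternative included FOXA2, TPM3, TTR, SLC25A22, IGF2BP2, ENO2 and CD34. List medians near 0 changed sign in some settings, which was counted as a move and not a reversal (a choice made after seeing them, since a median carries no call), in the lists of endoderm, mesenchyme, endothelium, mesoderm, Nodal, BAF and autophagy genes.

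Replicate numbers did not pair the samples: same-numbered libraries of stem cells and Day 12 had correlations of deviations of 0.05, -0.08 and -0.24. With the replicate block 6441 genes passed over the span against 6486, and the difference of the spans gave 43, and LIN28B (-0.74) and PTBP2 (0.54) gained a call. At these depths a gene with a few counts in a group has a wide interval, and an absent call there does not show equal levels.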

Other observations

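Retinoic acid genes moved in both directions. CYP26A1, which breaks retinoic acid down, had a mean of 135 CPM in stem cells and 3.60 CPM at Day 12 (log2 fold change -5.32), and DHRS3, which lowers its precursor, fell by 4.41. The carrier CRABP1 rose by 1.67 ± 0.17, RDH10, which makes retinaldehyde, by 1.03, and ALDH1A1, which makes retinoic acid, from 2 counts in stem cells to 16.7, 11.3 and 11.2 CPM at Day 12 (ratio of pooled counts 33.6, interval 8.95 to 283.1). In all 6 of 13 tested genes of the list rose and 3 fell.

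Chromatin genes were also mixed, with 14 of 35 higher and 8 lower. PHC1, a polycomb subunit of stem cells, fell by 3.50 and JARID2, a polycomb recruiter, by 2.04, while the polycomb subunits CBX8 (2.48) and SUZ12 (1.27) rose. TET2, a DNA demethylation enzyme, rose by 3.19 and the linker histone H1F0 by 2.44 ± 0.26. ESRP1, an epithelial splicing regulator, had a mean of 77.7 CPM in stem cells and 0.591 CPM at Day 12 (3 counts, 133-fold lower, interval 45.3 to 649), and RBFOX1, a neuronal one, rose by 4.45 ± 0.54. Of 27 tested genes of LIS1 and dynein 9 rose and 3 fell, among them DYNLL1 (-1.28), a light chain, and BICD1 (1.65), a cargo adaptor.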
